A study of Mus musculus with 4 samples.

Results

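Cytokine receptor subunits were followed as a set of 39 genes, chosen by name, that encode the chains with which cells receive interleukins, interferons, colony-stimulating factors, tumour necrosis factor (TNF) and transforming growth factor beta (TGF-beta). All 39 were found, with 1 row each, among the 32246 genes of the deposited table. The RNA came from mononuclear cells of C57BL/6 spinal cord, separated on a Percoll gradient. The mice had been immunized to induce EAE (experimental autoimmune encephalomyelitis), a model of multiple sclerosis. From day 8 after immunization the mice received, on alternate days, a scramble micropeptide (Scr, the control) or microPEP155 (P155), a micropeptide whose reading frame lies in the host transcript of miR-155, and there were 2 libraries per group, numbered 4 and 5 in each. All libraries therefore came from mice with EAE, and animals without disease or without peptide were not analysed here. Neither the age of the mice nor whether each library came from a separate animal is given in the labels, so p-values measure only the spread between these libraries, which may be technical. Dose and route of the peptides are not given there either. Setting P155 against Scr asks which receptor transcripts of these preparations differed after treatment with the peptide.

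Cytokine receptors work as pairs or larger assemblies of chains. A private chain usually gives specificity for a ligand, while a shared chain, such as the common gamma chain (Il2rg), the common beta chain (Csf2rb), gp130 (Il6st) or the IL-1 receptor accessory protein (Il1rap), carries the signal for several ligands through Janus kinases (JAKs) or adaptor proteins. In EAE, T cells that respond to IL-12 and IL-23 enter the spinal cord and recruit myeloid cells that respond to granulocyte-macrophage colony-stimulating factor (GM-CSF), while astrocytes, endothelial cells and neurons answer through receptors of the gp130, IL-1 and IL-17 families.

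Levels are given as log2(normalized reads + 1), where the normalized reads are the authors' reads per gene divided by 1 size factor per library. The libraries held between 30777600 and 64702900 reads (rounded), and P155 replicate 5 was the shallowest, so its low values carry the most counting error. The libraries were also a mix of cell types. Markers of astrocytes, oligodendrocytes and neurons summed to between 302311 and 796306 normalized reads in a library for each list, against 18662 to 47277 for 10 markers of all leukocytes, so the preparations labelled mononuclear cells also held RNA of glia and neurons, and myelin and astrocyte markers were among their abundant transcripts. Between 8.54% and 12.05% of reads were mitochondrial, with the highest share in Scr replicate 5.

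In P155, 36 of the 39 receptor subunits stood lower than in Scr and 3 stood higher (Il1rap, Il15ra and Il6st). The median log2 difference of the 39 genes was -0.53, against -0.03 for all 27079 genes tested, of which 53.4% were lower. No subunit passed the test across all genes: 0 of the 39 had a limma adjusted p under 0.05, against 0% of all genes, and the smallest limma adjusted p of a subunit was 0.861. Csf3r, Il18rap and Il1rl1, 3 of the 39, had an unadjusted p under 0.05, all lower in P155, where 3.18% of all genes tested were lower at that threshold and 1.17% were higher. By limma-voom on the recovered reads 0 subunits passed, and 4 had an unadjusted p under 0.05, as had 1072 of all genes. The P155 libraries were both below the Scr pair for 21 of the 39 subunits, against 19.6% of all genes, and above them for 1, Il1rap, against 15.2%. The authors' deposited table, by a test it does not name, called 2 of the 39 subunits at an FDR under 0.05, Csf3r and Il18rap, both lower in P155, where it called 0.36% of its 32246 genes lower and 0.171% higher.

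**Figure D1:**
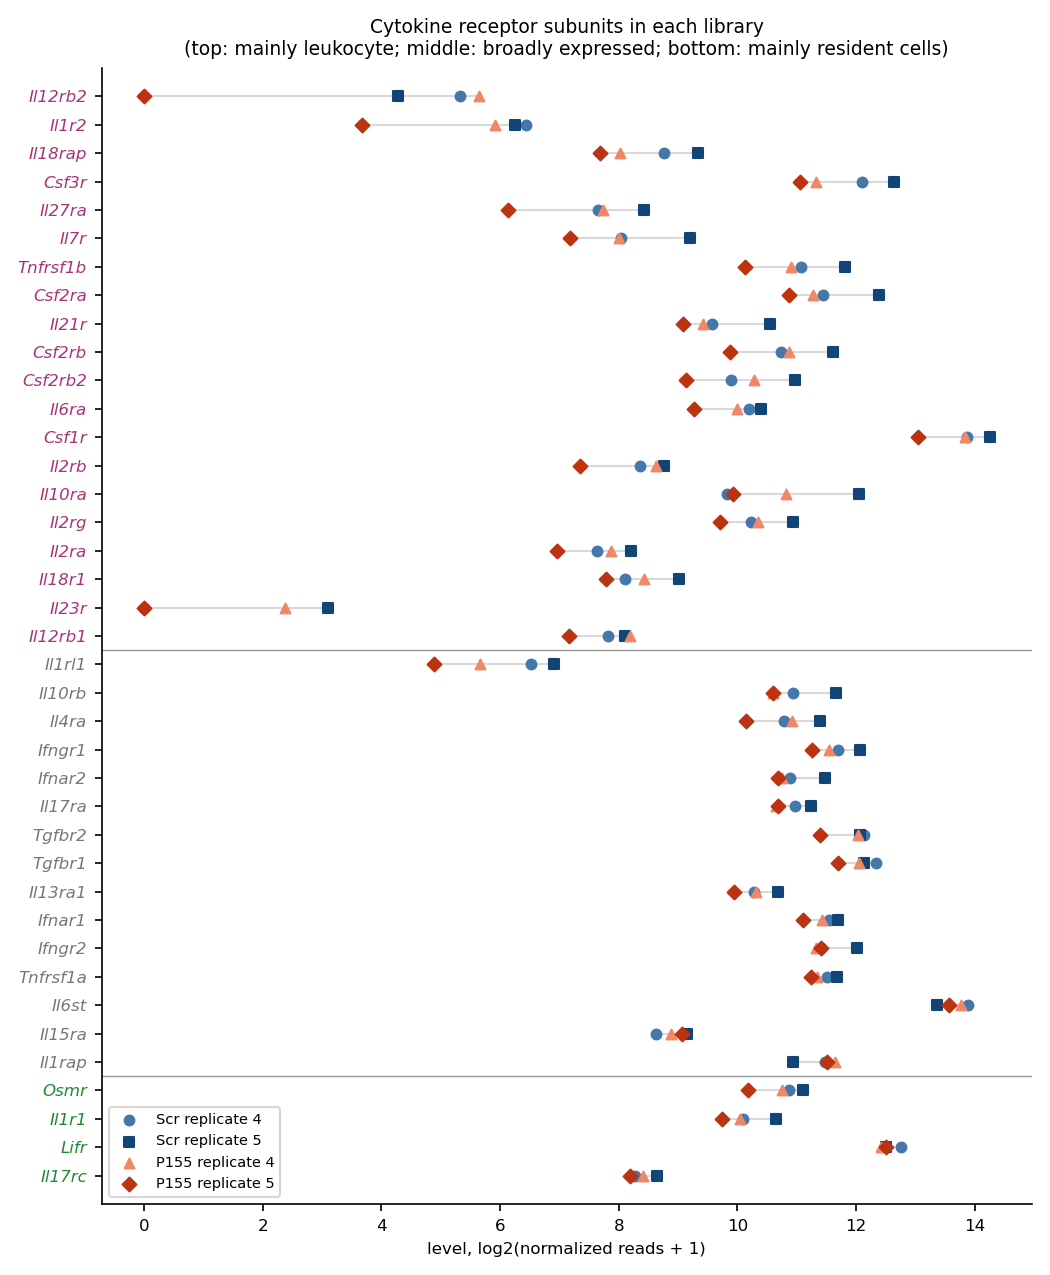
Level of each of the 39 receptor subunits in the 4 libraries, as log2(normalized reads + 1) on the x axis, with 1 row per gene, ordered within 3 classes by the difference between groups. Scr replicate 5 (dark square) is the right-most point in 31 rows and P155 replicate 5 (dark diamond) the left-most in 30. For Il23r the symbols of Scr replicate 4 and P155 replicate 5 coincide at 0.

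The difference between groups was uneven over the libraries. Scr replicate 5 was the highest library for 31 of the 39 subunits, and P155 replicate 5 was the lowest for 30, with Il23r tied at 0 between P155 replicate 5 and Scr replicate 4. Among all genes tested, Scr replicate 5 was the highest for 34.7% and P155 replicate 5 the lowest for 28.4%. The shared numbers are not taken as pairs, so matching libraries by number is only 1 way to set them side by side. Between the libraries numbered 5, 37 of 39 subunits were lower in P155, with a median of -1.20, where 52% of all genes were lower. Between the libraries numbered 4, 23 of 39 were lower, with a median of -0.08, where 47.5% of all genes were lower. The median over the 39 subunits was -0.23 without P155 replicate 5, -0.30 without Scr replicate 5, -0.80 without Scr replicate 4 and -0.88 without P155 replicate 4, so its sign did not depend on 1 library while its size did.

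Over the 4 libraries, the median difference was larger for subunits mainly of leukocytes than for those mainly of resident cells, but this rested on the libraries numbered 5. The classes were set from general knowledge of where each gene is expressed. There were 20 mainly leukocyte subunits, 4 mainly of glial, neuronal, vascular or stromal cells (Il1r1, Il17rc, Lifr and Osmr), and 15 broadly expressed. Csf1r was counted as a leukocyte subunit although resident microglia also depend on it, so that class may hold RNA of resident cells too. Each of the 20 leukocyte subunits had a negative difference; their median was -0.76 (log2) and a range from -1.99 (Il12rb2) to -0.29 (Il12rb1). The 4 resident-cell subunits were all lower too, with a median of -0.33 and a range from -0.53 (Osmr) to -0.16 (Il17rc). Of the 15 broad subunits 12 were lower, and their median was -0.36. The libraries of the groups did not overlap, with P155 lower, for 9 of the 20 leukocyte subunits, 9 of the 15 broad ones and 3 of the 4 resident ones, beside 19.6% of all genes. The gaps of the 3 resident ones were small, with 0.12 for Osmr, 0.045 for Il1r1 and 0.007 for Lifr. The gap between the class medians was not tested. The leukocyte median was -0.26 without P155 replicate 5, -0.37 without Scr replicate 5, -1.29 without Scr replicate 4 and -1.25 without P155 replicate 4. The resident median in the same settings was -0.23, -0.25, -0.49 and -0.45, so the classes were nearly level without P155 replicate 5. Between the libraries numbered 4 the order turned, with a median of 0.11 for leukocyte subunits and -0.08 for resident ones. Between those numbered 5 the medians were -1.62 and -0.68. The numbers are not taken as pairs, and class medians for other matchings were not computed.

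The mean of the 20 leukocyte subunits, relative to its mean over the 4 libraries, was 0.04 and 0.80 for Scr replicates 4 and 5, and 0.18 and -1.01 for P155 replicates 4 and 5. On this mean P155 replicate 4 lay above Scr replicate 4, and the groups overlapped. The mean weighs each gene equally, also Il23r, with 0 reads in Scr replicate 4 and 5 in P155 replicate 4. The order did not come from Il23r only, as 11 of the 20 were higher in P155 replicate 4 than in Scr replicate 4 and 9 were lower. Summed over the class, the levels were 32924 and 52203 normalized reads in Scr and 31579 and 19099 in P155. These sums did not overlap, but those of the libraries numbered 4 lay close together. Csf1r, the most abundant subunit, weighs most in them. For the 4 resident-cell subunits the means were 0.05, 0.28, -0.04 and -0.29 in the same order, and the groups did not overlap. Markers of leukocytes were lower in P155 as well, but not all lists had the order of libraries of the leukocyte subunits. All 10 pan-leukocyte markers were lower in P155, with a median of -0.83, and their means were 0.16, 0.64, -0.13 and -0.68 in that order. Their summed level was 34663 to 47277 normalized reads in Scr and 18662 to 28464 in P155, and none was at 0. All 11 T cell markers were lower, with a median of -0.76 and means of -0.04, 0.90, -0.03 and -0.82. This is the order of the leukocyte subunit means, but the T cell means of the libraries numbered 4 were nearly equal. Summed levels were 2487 to 4860 in Scr and 1543 to 2517 in P155. All B cell, monocyte and neutrophil markers were lower too, but their lowest mean was in P155 replicate 4, at -0.95, -0.45 and -1.57. Markers of astrocytes, with a median of 0.03, oligodendrocytes, with 0.06, and neurons, with 0.22, did not share this direction. Vascular and stromal markers did: 7 of 8 endothelial markers were lower, with a median of -0.18, and 7 of 8 fibroblast markers, with a median of -0.40. The list means of both did not overlap between the groups. Fibroblast markers summed to 91633 to 96282 normalized reads in Scr and 58114 to 71456 in P155, and none was at 0. In bulk RNA, fewer cells of a type and less receptor RNA per cell cannot be told apart, and the part of cell composition in these differences was not tested.

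**Figure D2:**
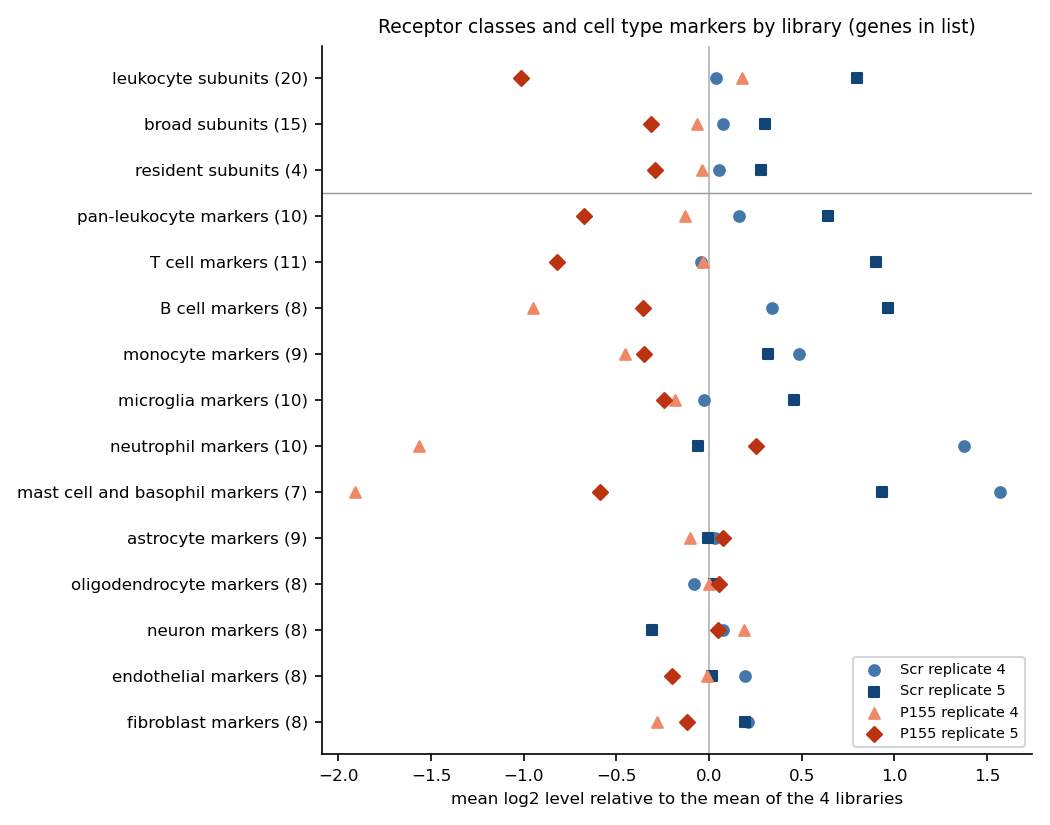
Mean log2 level of each receptor class and of each list of cell type markers in the 4 libraries, relative to the mean of the 4, with the number of genes in parentheses. The leukocyte subunits span -1.01 to 0.80 and the resident subunits -0.29 to 0.28. The T cell markers have the same order of libraries as the leukocyte subunits, but their means in Scr replicate 4 and P155 replicate 4 are nearly equal, at -0.04 and -0.03.

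Relative to the mean of the 10 pan-leukocyte markers in each library, the median difference of the leukocyte subunits was 0.04, and 9 of the 39 subunits remained below 0 while 30 were above. This reference moved the median of all genes tested from -0.03 to 0.77, and 13.3% of all genes lay below 0 on it. The 9 subunits below the leukocyte markers on this scale were Il12rb2 (-1.18), Il1r2 (-0.74), Il1rl1 (-0.64), Il18rap (-0.39), Csf3r (-0.38), Il27ra (-0.30), Il7r (-0.23), Tnfrsf1b (-0.12) and Csf2ra (-0.04). None of the 39 had a limma adjusted p under 0.05 on this scale, where the smallest was 0.302 for Il1rap at 1.17.

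**Figure D3:**
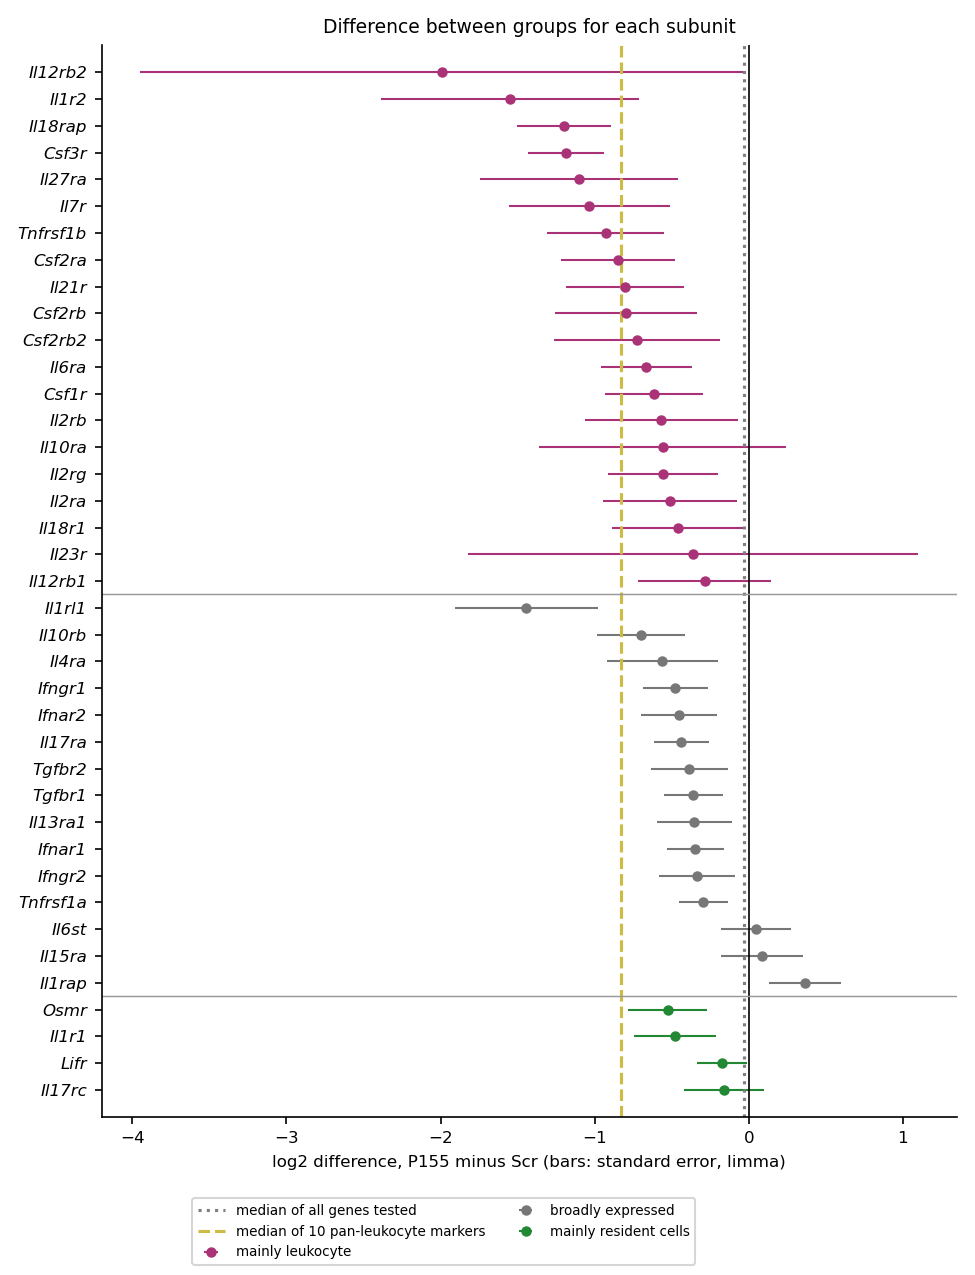
Log2 difference between P155 and Scr for each subunit, with the standard error from limma as bars, in the mainly leukocyte (top), broadly expressed (middle) and mainly resident (bottom) classes. The dotted line is the median of all genes tested (-0.03) and the dashed line that of 10 pan-leukocyte markers (-0.83), and most leukocyte subunits lie between the 2 lines or around the dashed one.

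Promoter sequences are shown for 3 leukocyte subunits without overlap between the groups and for Il1rap. Il1rap was the only subunit with both P155 libraries above both Scr libraries. RefSeq windows on GRCm38.p6, from 250 bases before to 50 after a transcript start, were found for 31 of the 39 genes (38 windows, since some genes have several starts). They were searched on both strands for 4 motifs. The PU.1-type core, GAGGAAG, is bound by a transcription factor of myeloid and B cells. The GAS element, TTCNNNGAA, is bound by the STAT factors that act behind many cytokine receptors. The GC box, a common element of broadly active promoters, was searched for as GGGCGG. The TATA box of core promoters was searched for as the letters TATAAA. Capitals mark every match, and no matches overlap in the windows printed here.
Csf3r promoter, chr4:126024409-126024708, plus strand: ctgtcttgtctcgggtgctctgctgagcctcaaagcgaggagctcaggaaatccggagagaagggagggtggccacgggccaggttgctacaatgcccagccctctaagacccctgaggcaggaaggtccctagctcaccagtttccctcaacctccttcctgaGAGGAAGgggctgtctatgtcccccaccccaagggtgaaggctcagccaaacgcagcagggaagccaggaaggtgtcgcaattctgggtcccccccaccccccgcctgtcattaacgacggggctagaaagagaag
Il18rap promoter, chr1:40515112-40515411, plus strand: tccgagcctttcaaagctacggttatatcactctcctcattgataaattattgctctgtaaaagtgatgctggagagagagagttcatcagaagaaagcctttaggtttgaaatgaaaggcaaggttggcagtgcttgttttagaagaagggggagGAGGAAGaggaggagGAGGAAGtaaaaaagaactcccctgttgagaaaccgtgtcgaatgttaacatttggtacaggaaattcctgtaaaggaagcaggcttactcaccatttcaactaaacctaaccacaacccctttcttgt
Tnfrsf1b promoter, chr4:145246821-145247120, minus strand: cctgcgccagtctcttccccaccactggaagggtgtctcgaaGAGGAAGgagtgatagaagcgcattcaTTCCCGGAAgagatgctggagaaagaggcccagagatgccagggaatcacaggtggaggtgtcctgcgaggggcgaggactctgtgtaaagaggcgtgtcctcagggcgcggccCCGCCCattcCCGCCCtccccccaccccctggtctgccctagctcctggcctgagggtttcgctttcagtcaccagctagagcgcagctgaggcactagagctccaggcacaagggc
Il1rap promoter, chr16:26581455-26581754, plus strand: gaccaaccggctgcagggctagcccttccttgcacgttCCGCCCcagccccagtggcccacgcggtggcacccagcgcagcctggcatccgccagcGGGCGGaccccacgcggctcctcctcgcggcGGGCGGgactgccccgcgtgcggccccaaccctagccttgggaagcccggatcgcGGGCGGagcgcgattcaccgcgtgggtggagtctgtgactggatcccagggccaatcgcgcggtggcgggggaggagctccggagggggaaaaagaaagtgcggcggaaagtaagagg
Csf3r held 1 PU.1-type match, Il18rap held 2 and Tnfrsf1b held 1 beside a GAS match and 2 GC boxes, while Il1rap held 4 GC boxes. Among other leukocyte subunits without overlap, Csf2ra also held PU.1-type matches, while Il1r2, Il7r, Il21r and Il6ra held none. Csf2rb2 and Il18r1, whose groups overlapped, held such matches, and so did Il15ra, 1 of the 3 subunits that stood higher. The windows printed therefore do not stand for a link between motif and direction. A PU.1-type match was present in 6 of 16 windows of leukocyte subunits (37.5%), 3 of 16 of broad subunits (18.8%) and 0 of 6 of resident subunits, against 13.6% of all 32851 promoter windows. GAS matches had the same counts in these classes, against 8.3% of all windows. GC boxes were found in 3 of 16 leukocyte windows (18.8%), 11 of 16 broad windows (68.8%) and 4 of 6 resident windows (66.7%), against 35.7% of all. No window of the 38 held a TATA box, where 13.6% of all windows did. The median number of CpG pairs was 7 in leukocyte windows, 16.5 in broad windows and 10.5 in resident windows, against 7 over all promoters. These matches describe letters only, and binding was not measured.

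Among the receptors of colony-stimulating factors, which drive the growth and survival of myeloid cells, all 5 chains were lower, with a median of -0.80. Csf3r, the receptor of granulocyte colony-stimulating factor on neutrophils and other myeloid cells (ENSMUSG00000028859, chromosome 4, 126024550 to 126044440, plus strand, mm10), stood at 12.10 and 12.65 with Scr, against 11.32 and 11.05 with P155 (replicates 4 and 5 in this order, as for the genes that follow). Both P155 libraries were below both Scr libraries, by at least 0.77. The log2 difference was -1.19 (SE 0.25, limma adjusted p = 0.861), a level 2.28-fold higher in Scr, and the authors' deposited table gives it an FDR of 0.000289. Leaving out 1 library gave differences from -1.46 to -0.91. Neutrophil markers, all 10 lower with a median of -1.36, had another order of libraries, with means of 1.38 and -0.06 in Scr replicates 4 and 5 and -1.57 and 0.25 in P155 replicates 4 and 5. Summed, they gave 27846 to 70993 normalized reads in Scr and 8971 to 31725 in P155, and none was at 0. Csf3r was highest in Scr replicate 5 and lowest in P155 replicate 5, where the neutrophil markers were near their middle, and the part of neutrophils in its difference was not tested.

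Csf2ra, the private chain of the GM-CSF receptor, stood at 11.44 and 12.39 with Scr, against 11.27 and 10.87 with P155, without overlap (difference -0.85, SE 0.37, limma adjusted p = 0.861). Its partner Csf2rb, the common beta chain, was at 10.73 and 11.60 with Scr, against 10.87 and 9.87 with P155. Csf2rb2, a mouse gene for a beta chain used by IL-3, was at 9.89 and 10.97 and at 10.27 and 9.13. Their differences were -0.80 (SE 0.46) and -0.72 (SE 0.54), each with a limma adjusted p = 0.861. For both beta chains P155 replicate 4 lay between the Scr libraries, so the groups overlapped. The longest protein-coding transcripts of these paralogs share 90.8% of 4682 aligned bases, so some reads could be assigned to either gene, and 6.96% of the windows of 100 bases of Csf2rb occur unchanged in Csf2rb2. Csf1r, the receptor that microglia and macrophages need to survive, was the most abundant subunit, at 13.86 and 14.25 with Scr, against 13.83 and 13.05 with P155 (difference -0.62, SE 0.32, limma adjusted p = 0.861). Its libraries did not overlap, but Scr replicate 4 and P155 replicate 4 differed by only 0.03, and the difference was -0.22 without P155 replicate 5. Microglia markers were lower in 9 of 10 genes, with a median of -0.48 and summed levels of 36843 to 54083 normalized reads in Scr and 30775 to 34388 in P155. All 9 monocyte markers were lower, with a median of -0.81 and summed levels of 72060 to 118961 in Scr and 42834 to 60010 in P155. No marker of either list was at 0, the list means did not overlap between the groups, and their part in the Csf1r difference was not tested. An exon of Hmgxb3 overlaps Csf1r on the opposite strand, and the use of strand in counting is not given in the sources used here.

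In the IL-1 and IL-18 receptor family, which signals through a shared intracellular domain, 5 of 6 chains were lower and 1 was higher. Il18rap, the signalling chain of the IL-18 receptor on T and natural killer cells (ENSMUSG00000026068, chromosome 1, 40515362 to 40551705, plus strand), stood at 8.77 and 9.34 with Scr, against 8.02 and 7.69 with P155. The lowest Scr library was 0.75 above the highest P155 library, and the difference was -1.20 (SE 0.31, limma adjusted p = 0.861). The authors' deposited table gives Il18rap an FDR of 0.0294. Its ligand-binding partner Il18r1 stood at 8.10 and 9.01 with Scr, against 8.42 and 7.78 with P155, with overlapping groups. Il1rl1 encodes ST2, the IL-33 receptor of mast cells, type 2 lymphocytes and other cells, and was counted here as broadly expressed. Il1rl1 was at 6.53 and 6.92 with Scr, against 5.67 and 4.89 with P155 (difference -1.44, SE 0.46, limma adjusted p = 0.861), without overlap. These levels came from 112 and 142 reads in Scr and 59 and 17 in P155. All 7 mast cell and basophil markers were lower as well, with a median of -2.31 and summed levels of 320 to 587 normalized reads in Scr and 239 to 311 in P155. The mast cell protease genes Mcpt4 and Tpsb2 had 0 reads in each P155 library. They were low in Scr too, at 3.43 and 3.68 for Mcpt4 and 2.91 and 4.09 for Tpsb2. Hdc, the highest gene of the list, stood at 8.66 and 7.81 with Scr, against 7.85 and 8.03 with P155, with overlap. The protease genes Cma1 and Cpa3 and the IgE receptor gene Ms4a2 had 0 reads in P155 replicate 4. The part of mast cells in the Il1rl1 difference was not tested.

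Il1r2, a decoy receptor that binds IL-1 without signalling, was at 6.44 and 6.25 with Scr, against 5.91 and 3.68 with P155. Its lowest value rested on 7 reads in P155 replicate 5, and the difference of -1.55 had an SE of 0.84 (limma adjusted p = 0.861). Il1r1, the signalling IL-1 receptor of endothelial and other resident cells, was at 10.09 and 10.65 with Scr, against 10.04 and 9.74 with P155 (difference -0.48, SE 0.27, limma adjusted p = 0.861). Il1rap, the accessory chain shared by the IL-1 and IL-33 receptors, which also has a neuronal form, was the only subunit with both P155 libraries above both Scr libraries. It stood at 11.48 and 10.94 with Scr, against 11.64 and 11.51 with P155, a difference of 0.37 (SE 0.23, limma adjusted p = 0.861) with a gap of 0.03 between the groups. Without Scr replicate 5 that difference was 0.10. An exon of Gm20319 overlaps Il1rap on the opposite strand.

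Of the 8 chains of the common gamma family and its IL-4 and IL-13 relatives, which serve lymphocyte growth and type 2 responses, 7 were lower, with a median of -0.56. The common gamma chain gene Il2rg stood at 10.22 and 10.94 with Scr, against 10.36 and 9.70 with P155 (difference -0.56, SE 0.36, limma adjusted p = 0.861), with overlapping groups. Il7r, the IL-7 receptor of resting T cells, was at 8.04 and 9.20 with Scr, against 8.0 and 7.17 with P155 (difference -1.04, SE 0.52, limma adjusted p = 0.861), with a gap of 0.04 between the groups. Il21r, the IL-21 receptor of T and B cells, was at 9.57 and 10.54 with Scr, against 9.42 and 9.08 with P155, also without overlap. Il2ra and Il2rb, the chains that raise affinity for IL-2 and carry its signal, had differences of -0.51 and -0.57 with overlapping groups, and so had Il4ra with -0.56 and Il13ra1 with -0.35. Il15ra, which presents IL-15 to neighbouring cells, was at 8.63 and 9.14 with Scr, against 8.88 and 9.07 with P155, a difference of 0.08 (SE 0.27, limma adjusted p = 0.965).

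The receptors of the T helper cytokines IL-12, IL-23 and IL-27 included the 2 lowest genes of the set per length. Il23r, which marks T cells of the IL-17 lineage, had 0 and 9 reads for Scr replicates 4 and 5, and 5 and 0 reads for P155 replicates 4 and 5 (log2 difference -0.36, SE 1.46, limma adjusted p = 0.977). A count of 0 allows up to 3 reads, a log2 level of 1.79 in Scr replicate 4 and 2.60 in P155 replicate 5, by counting error only, so no difference in Il23r could be seen at this depth. Il12rb2, the IL-12 chain of T helper 1 cells, had 48 and 22 reads in the Scr libraries, 58 in P155 replicate 4 and 0 in P155 replicate 5. Its log2 difference of -1.99 (SE 1.96) rested on that library and was 0.83 without it, and an exon of Serbp1 overlaps it on the opposite strand. Il12rb1, the chain shared by IL-12 and IL-23, stood at 7.83 and 8.10 with Scr, against 8.20 and 7.16 with P155, with overlapping groups. Il27ra was at 7.66 and 8.42 and at 7.74 and 6.13, likewise with overlap, and it shares exon sequence with Palm3 on the opposite strand.

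Of the 4 gp130 family chains, 3 were lower and 1, gp130 itself, was near 0. Il6st, which encodes gp130 itself, stood at 13.88 and 13.37 with Scr, against 13.77 and 13.57 with P155, a difference of 0.05 (SE 0.23, limma adjusted p = 0.98). Lifr, the receptor of leukemia inhibitory factor in glia and neurons, was at 12.76 and 12.51 with Scr, against 12.42 and 12.50 with P155 (difference -0.17, SE 0.16, limma adjusted p = 0.864). Osmr, the oncostatin M receptor of astrocytes and endothelial cells, stood at 10.87 and 11.11 with Scr, against 10.75 and 10.18 with P155 (difference -0.53, SE 0.25, limma adjusted p = 0.861), without overlap. Il6ra, the IL-6 binding chain, was at 10.20 and 10.40 and at 9.99 and 9.27, also without overlap (difference -0.66, SE 0.30, limma adjusted p = 0.861), and an exon of Gm42809 overlaps it on the opposite strand. Endothelial markers, as possible carriers of Osmr and Il1r1, were lower in 7 of 8 genes with a median of -0.18 and summed levels of 18614 to 20072 normalized reads in Scr and 14810 to 17383 in P155, none at 0, and astrocyte markers were lower in 3 of 9 with summed levels of 473369 to 501607 and 491454 to 506029. Fibroblast markers, for the stromal cells of this class, were lower in 7 of 8 genes with a median of -0.40. Their summed levels were 91633 to 96282 normalized reads in Scr and 58114 to 71456 in P155. The part of these cell types in the Osmr and Il1r1 differences was not tested.

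Interferon and IL-10 receptor chains, of which all but Il10ra are broadly expressed, were lower in all 6 cases with a median of -0.46. Il10rb, the broadly expressed chain of the IL-10 receptor, stood at 10.94 and 11.67 with Scr, against 10.60 and 10.61 with P155 (difference -0.70, SE 0.28, limma adjusted p = 0.861), without overlap. Il10ra, its leukocyte partner, varied most within a group among subunits above a level of 9, at 9.82 and 12.05 with Scr, against 10.82 and 9.93 with P155, and its difference of -0.56 (SE 0.80) became 0.55 without Scr replicate 5. Ifngr1, the ligand-binding chain for interferon gamma, was at 11.69 and 12.06 with Scr, against 11.54 and 11.26 with P155 (difference -0.48, SE 0.21, limma adjusted p = 0.861), while Ifngr2 overlapped between the groups. The type I interferon receptor chains Ifnar1, at 11.55 and 11.69 against 11.43 and 11.11 (difference -0.35, SE 0.18, limma adjusted p = 0.861), and Ifnar2, at 10.88 and 11.47 against 10.75 and 10.69, did not overlap.

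All 4 TNF and TGF-beta receptor genes were lower without overlap between the groups, as were 19.6% of all genes, and the gaps ran from 0.04 for Tgfbr2 to 0.17 for Tnfrsf1b. Tnfrsf1b, the TNF receptor of leukocytes, was at 11.08 and 11.81 with Scr, against 10.91 and 10.12 with P155 (difference -0.93, SE 0.38, limma adjusted p = 0.861). Tnfrsf1a, the broadly expressed TNF receptor, differed less, at 11.50 and 11.67 with Scr, against 11.35 and 11.24 with P155 (difference -0.29, SE 0.16, limma adjusted p = 0.861). Tgfbr1, the signalling kinase of the TGF-beta receptor, stood at 12.33 and 12.13 and at 12.04 and 11.70 (difference -0.36, SE 0.19, limma adjusted p = 0.861), and Tgfbr2, its ligand-binding partner, at 12.13 and 12.06 and at 12.02 and 11.40. Of the IL-17 receptor chains, Il17ra was at 10.97 and 11.25 with Scr, against 10.65 and 10.69 with P155 (difference -0.44, SE 0.18, limma adjusted p = 0.861), without overlap, and Il17rc, the chain of non-immune cells, at 8.28 and 8.65 and at 8.41 and 8.19 (difference -0.16, SE 0.26, limma adjusted p = 0.918), with overlap.

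Scaled by exon length, Csf1r led with a mean over the 4 libraries of 2487 normalized reads per kb of exon, ahead of Il6st at 1166, Ifngr1 at 1142, Csf2ra at 1088, Tnfrsf1a at 1080 and Csf3r at 1072. The 5 genes from Il6st to Csf3r overlapped one another in their ranges over libraries, and so did Csf1r with Ifngr1, Csf2ra and Csf3r. Receptors of lymphocytes stood lower per kb, with Il2rg at 556, Il2rb at 76.8, Il7r at 67.0, Il18rap at 57.2 and Il2ra at 37.1. Il1rl1 at 10.5, Il12rb2 at 7.03 and Il23r at 1.19 were the lowest.

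**Figure D4:**
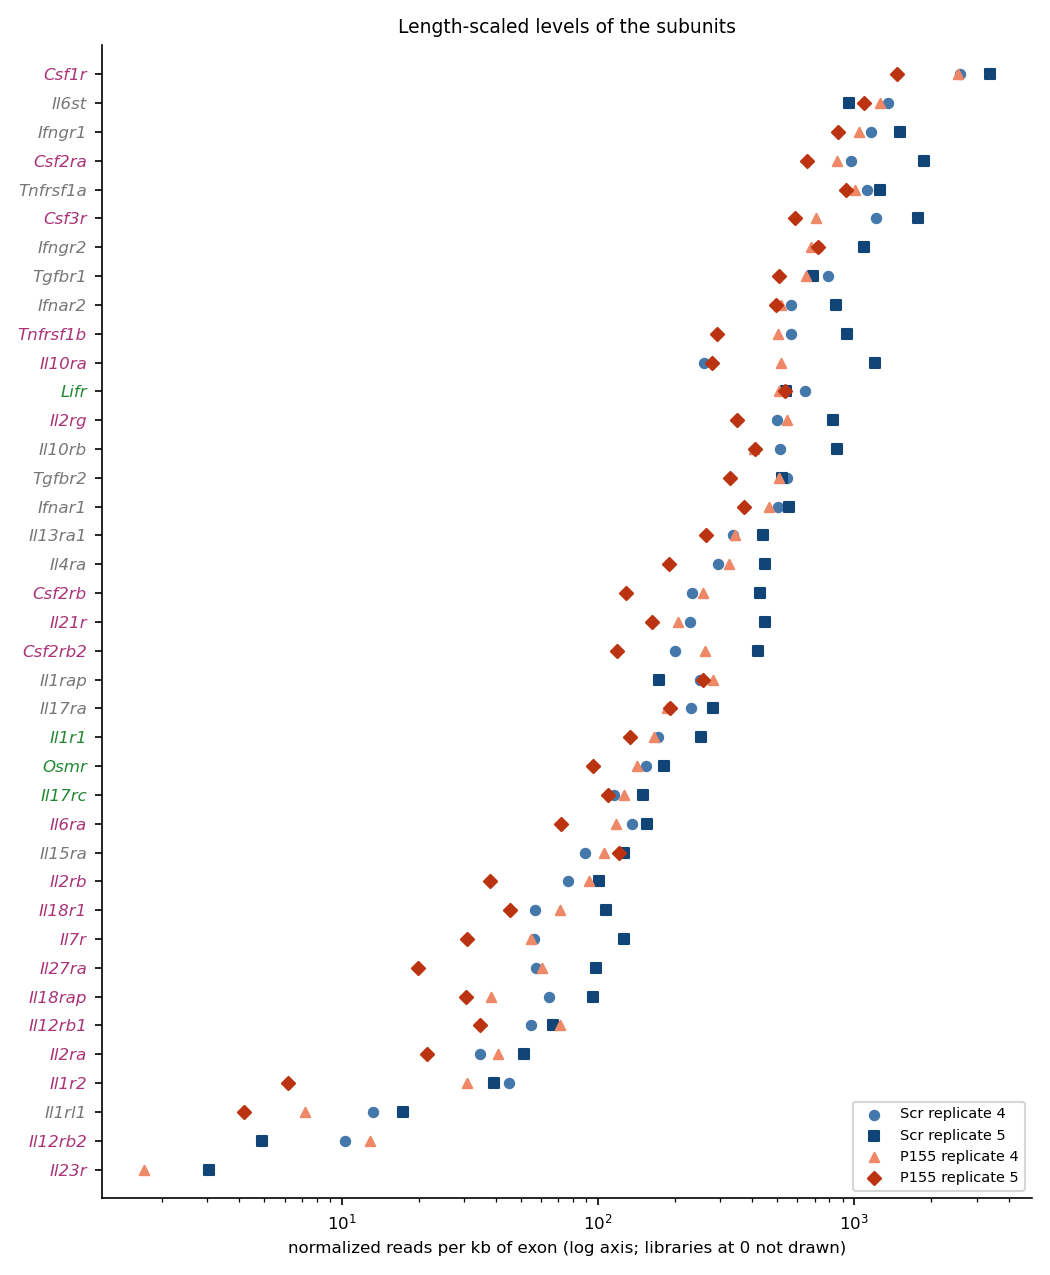
Normalized reads per kb of exon for each subunit in the 4 libraries, on a log axis and ordered by the mean, with gene names coloured by class (magenta, mainly leukocyte; grey, broad; green, mainly resident). Csf1r leads at a mean of 2487 and Il23r, at 0 in 2 libraries that are not drawn, is lowest at 1.19.

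Ratios of length-scaled levels between 2 genes do not depend on library scaling and are given as descriptions. Not all pairs are chains of 1 receptor. Tnfrsf1b and Tnfrsf1a are separate receptors, Il1r2 is a decoy beside Il1r1, and Csf2rb2 and Csf2rb are paralogs. Of 25 ratios, 17 overlapped between the groups, 7 were lower in both P155 libraries than in both Scr libraries and 1 was higher. No such share was computed for other pairs of genes, so the counts have no background. The ratio of Il18rap to Il18r1 was 1.13 and 0.893 with Scr, against 0.539 and 0.67 with P155, so both P155 libraries had less transcript of the signalling chain relative to the binding chain. For the TNF receptors, Tnfrsf1b over Tnfrsf1a was 0.506 and 0.744 in Scr and 0.499 and 0.313 in P155, with replicates 4 nearly equal. Il1r1 over Il1rap was 0.681 and 1.46 in Scr and 0.59 and 0.522 in P155. Il6ra over Il6st was 0.1 and 0.164 in Scr and 0.0933 and 0.0653 in P155, and Osmr over Il6st was 0.114 and 0.191 against 0.113 and 0.0872. The other 2 lower ratios were Il1rl1 over Il1rap, at 0.0528 and 0.101 in Scr and 0.0257 and 0.0162 in P155, and Il7r over Il2rg, at 0.113 and 0.153 in Scr and 0.0996 and 0.0883 in P155. Il17rc over Il17ra went the other way, with 0.502 and 0.534 in Scr and 0.683 and 0.574 in P155. For the GM-CSF receptor, transcript of the alpha chain stood above that of the beta chain in every library. Csf2ra over Csf2rb was 4.14 and 4.39 in Scr and 3.34 and 5.06 in P155. The size of this ratio depends on the length used for Csf2rb, 7277 bases of exon, where its longest protein-coding transcript has 4900. Il4ra over Il2rg stayed between 0.541 and 0.59 in the 4 libraries. Ifnar2 over Ifnar1, at 1.12 and 1.53 in Scr and 1.11 and 1.33 in P155, overlapped between the groups. With 2 libraries against 2, an exact two-sided permutation test of such a ratio cannot go below p = 0.333.

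**Figure D5:**
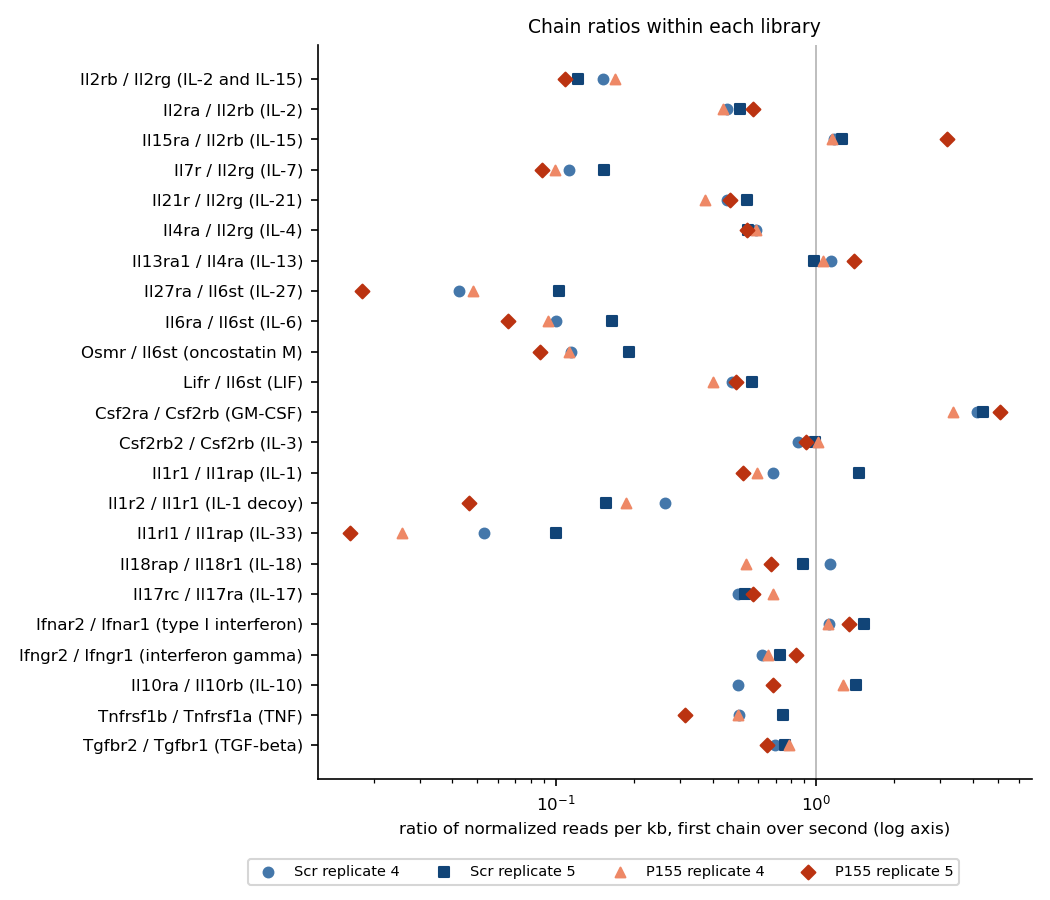
Ratio of normalized reads per kb between paired chains or related receptors (first over second) within each library, on a log axis, with the ligand in parentheses. Il18rap over Il18r1 separates the groups, with 0.893 and 1.13 in Scr against 0.539 and 0.67 in P155, whereas Il4ra over Il2rg is nearly the same in the 4 libraries; pairs with Il12rb1 are left out because of libraries at 0.

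Several subunits are neighbours in the genome. Il1r2 (40074079 to 40125231), Il1r1 (40225080 to 40317257), Il1rl1 (40429570 to 40465415), Il18r1 (40465552 to 40500854) and Il18rap lie in a row on the plus strand of chromosome 1 in mm10. Their differences ran from -1.55 for Il1r2 to -0.46 for Il18r1, and Il18r1, whose groups overlapped, lies between Il1rl1 and Il18rap, whose groups did not. Il1rl2, the IL-36 receptor of the same cluster, was at 8.26 and 9.15 with Scr, against 8.26 and 7.58 with P155. On chromosome 16, Ifnar2, Il10rb, Ifnar1 and Ifngr2 lie in a row between 91372783 and 91565623 on the plus strand, with differences of -0.45, -0.70, -0.35 and -0.34.

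Other receptor genes and signalling proteins had smaller median differences. Of 35 further receptor subunits tested, 23 were lower and 12 higher, with a median of -0.29 and 0 with a limma adjusted p under 0.05. Il5ra, the eosinophil IL-5 receptor, stood at 4.47 and 5.40 with Scr, against 2.79 and 0 with P155, and Il9r, the IL-9 receptor, at 6.58 and 6.85 against 5.59 and 3.86. In the opposite direction Prlr, the prolactin receptor, stood at 6.58 and 7.46 with Scr, against 9.14 and 8.91 with P155, a difference of 2.01 (SE 0.38, limma adjusted p = 0.861). Of 21 Janus kinases and adaptors, 15 were lower and 6 higher, with a median of -0.21. None of the 4 Janus kinases passed: the differences were 0.12 (SE 0.23) for Jak1, 0.05 (SE 0.14) for Jak2, -0.39 (SE 0.32) for Jak3, the leukocyte kinase bound by the common gamma chain, and -0.54 (SE 0.33) for Tyk2, with limma adjusted p values from 0.861 to 0.963. The phosphatase gene Ptpn6 of leukocytes was at 11.52 and 11.90 with Scr, against 11.33 and 10.54 with P155, and the TNF receptor adaptor gene Tradd at 9.23 and 9.78 against 8.88 and 8.79, both without overlap.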

How the data were processed

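The 4 libraries were made from oligo(dT)-purified RNA, per the labels' protocols. The submitters' processing notes name bcl2fastq, STAR 2.5.3a, DESeq2 and mm10. Counter, annotation and strand setting: not given in the sources used here. In the deposited table are the authors' log2(normalized reads + 1) per library and, for P155 against Scr, their log2 fold change, p-value and FDR. Undoing the log gave whole reads for 100% of values (tolerance 0.0001). Genes reaching 1 normalized read in 2 or more libraries entered the fit, all 39 members among them. The contrast of P155 against Scr came from limma 3.58.1 in R 4.3.3, using its mean-variance trend and the deposited log2 values (pseudocount 1), two-sided, without a block, with p-values adjusted by Benjamini and Hochberg's method across the tested genes (threshold 0.05). Fold changes of low genes are understated on this scale. The fit was tested on simulated data. Coordinates and exon lengths are from GENCODE M21 (same build), which held 32168 of the 32246 gene identifiers.

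The members and lists were chosen with earlier results of these data known. All 39 members could be named. Full statistics were to be given for up to 8 with the smallest p in each direction and a fixed set of others, and of further lists up to 3 genes with the smallest p were named. Il1rl2, the Janus kinases, Hdc and the mast cell genes at 0 were chosen after their values were seen. All 8 B cell markers were also lower in P155 (median -1.43).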

Additional observations from a re-analysis of the deposited data

How the results depend on the processing

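Under library-size scaling, all genes kept, stricter filtering (CPM of 1 or more in 2 libraries and 50 reads on average, leaving 37 subunits), a pseudocount of 0.1, limma-voom, a robust prior, each library left out in turn (same genes tested) or a threshold of 0.1, 0 subunits and 0 of all genes passed where the setting applied, and the medians of the 39 subunits and of the resident-cell subunits kept their sign (-0.17 for the latter with Il6st and Il1rap added). With the filter applied again to the 3 libraries left, an alternative chosen after seeing the data, 6 of 25678 genes passed without P155 replicate 4 and 0 without each of the others, and 0 subunits passed. The lone library of a group was assumed to vary like the other group. Relative to pan-leukocyte markers 238 of all genes and 0 subunits passed. A replicate block on the shared numbers also gave 0 genes and 0 subunits passing. Deviations of same-numbered libraries correlated at r = 0.07 across genes, so the numbers are not taken as pairs. Leaving out 1 library moved the leukocyte median between -1.29 and -0.26, the resident median between -0.49 and -0.23, and that of all 39 between -0.88 and -0.23.

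Single subunits turned sign as follows, none past the threshold. Il23r was 0.37 by limma-voom. Over the libraries left out in turn, the ranges of those that crossed 0 were -1.67 to 0.55 for Il10ra, -0.81 to 0.23 for Il12rb1, -4.81 to 0.83 for Il12rb2, -0.17 to 0.34 for Il15ra, -0.34 to 0.021 for Il17rc, -1.91 to 1.19 for Il23r, -1.21 to 0.073 for Il2rb, -0.21 to 0.30 for Il6st. Under either filter, Il6st was -0.053 without P155 replicate 4 and Il15ra -0.0077 without P155 replicate 5. Relative to pan-leukocyte markers, the leukocyte median was 0.045, and 27 subunits turned positive: Il21r 0.0028, Csf2rb 0.0087, Csf2rb2 0.081, Il10rb 0.11, Il6ra 0.14, Csf1r 0.19, Il2rb 0.24, Il4ra 0.25, Il10ra 0.25, Il2rg 0.25, Osmr 0.28, Il2ra 0.29, Il1r1 0.33, Ifngr1 0.33, Il18r1 0.35, Ifnar2 0.35, Il17ra 0.37, Tgfbr2 0.42, Tgfbr1 0.44, Il23r 0.45, Il13ra1 0.45, Ifnar1 0.46, Ifngr2 0.47, Tnfrsf1a 0.51, Il12rb1 0.52, Lifr 0.63, Il17rc 0.64. The cause of these turns was not tested, beyond the lower pan-leukocyte markers that the reference itself adds. Depth limits Il23r, Il12rb2, Il1r2 and Il1rl1, each with under 20 reads in P155 replicate 5.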
